A study of Mus musculus with 675 samples.

Results

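The 6 genes Vtn, Higd1b, Ndufa4l2, Cox4i2, Colec11 and Steap4, often used as markers of pericytes, were followed through single cells of the mouse aorta. They were chosen by symbol, with their measured levels in earlier results of these data known, from the 46517 gene identifiers of the count table, all 6 were found, and they are called members here. A cell was said to carry a member at 50 counts per 1000000 counts of that cell (CPM) or more, and a cell that carried at least 3 of the 6 was called a carrier cell. That selection on measured values gave 12 carrier cells among 675, so the members' own levels in carrier cells are a description of how these cells were selected and have no test. The cells were sorted singly into 384-well plates and sequenced by Smart-seq2, a plate method that reads full-length cDNA and adds no molecular identifiers. All mice were male C57BL/6 wild-type animals of 10 weeks, as far as the labels say, with no treatment named. Pool A, 2 mice on 1 plate, gave 54.4% of the cells and pool B, 2 other mice on another plate, gave 45.6%, so mice and plate cannot be told apart and each comparison had n = 2 pools. The tissue label is aorta, while the extraction protocol speaks of a dissociated heart. No sort gate is given in the sources used here.

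Depth was similar in the pools, from 52000 to 608582 counts per cell in pool A (median 279661) and from 51886 to 713700 in pool B (median 299296). Carrier cells had medians of 253970 and 222286 counts. All 8 smooth muscle markers examined reached 100 CPM in the summed counts of the other cells of both pools. Cardiomyocyte markers summed to 57.3 and 104.9 CPM in those cells and to 144.9 and 88.6 CPM in carrier cells of pools A and B. No macrophage marker of 7 had a count in a carrier cell.

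Pericytes are the mural cells that wrap capillaries and the smallest venules, where smooth muscle cells wrap arteries and veins. They share the PDGF receptor beta and Notch signalling with smooth muscle and usually hold less contractile protein. A large artery such as the aorta has its own small vessels in the outer wall and the surrounding fat, so a dissected aorta can hold a few such cells. The members belong to 3 kinds of proteins. Ndufa4l2, Cox4i2 and Higd1b are mitochondrial: Cox4i2 is the alternative form of subunit 4 of cytochrome c oxidase, Ndufa4l2 is the hypoxia-inducible relative of the respiratory chain protein Ndufa4, and Higd1b belongs to a family of small inner membrane proteins named for hypoxia-induced genes. Vtn encodes vitronectin, a secreted adhesive glycoprotein that binds integrins, and Colec11 encodes collectin-11, a soluble sugar-binding protein of the lectin pathway of complement. Steap4 encodes a membrane metalloreductase that reduces iron and copper.

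In GRCm38 coordinates (GENCODE M21), Vtn spans chr11:78499091-78502324 on the plus strand and Higd1b spans chr11:102835849-102838040 on the plus strand. Ndufa4l2 is at chr10:127514967-127517154, Cox4i2 at chr2:152754173-152765037 and Steap4 at chr5:7960457-7982213, all on the plus strand. Colec11 is on the minus strand at chr12:28594173-28623377. Promoter sequences for 3 of the 6 members, Vtn, Colec11 and Steap4, were matched by symbol in a RefSeq table of 32851 promoters (GRCm38.p6), and they are shown as the members' own regulatory sequence. Each line gives the 200 bases that lie 250 to 51 bases before the RefSeq start, 5′ to 3′ on the strand of the gene, at chr11:78498870-78499069 (plus) for Vtn, chr12:28623381-28623580 (minus) for Colec11 and chr5:7960222-7960421 (plus) for Steap4. Capitals mark TGGGAA or its reverse complement TTCCCA, the core of the sequence bound by RBPJ, the DNA-binding partner of Notch. This motif was searched after the level of Notch3 in carrier cells had been seen.
Vtn: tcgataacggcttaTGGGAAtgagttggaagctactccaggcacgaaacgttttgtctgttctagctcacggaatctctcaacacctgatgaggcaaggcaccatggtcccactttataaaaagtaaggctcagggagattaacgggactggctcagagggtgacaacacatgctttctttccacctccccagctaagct
Colec11: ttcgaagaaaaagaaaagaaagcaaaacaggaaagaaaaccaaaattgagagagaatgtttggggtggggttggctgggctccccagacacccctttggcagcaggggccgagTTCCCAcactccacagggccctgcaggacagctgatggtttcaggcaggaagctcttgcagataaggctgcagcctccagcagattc
Steap4: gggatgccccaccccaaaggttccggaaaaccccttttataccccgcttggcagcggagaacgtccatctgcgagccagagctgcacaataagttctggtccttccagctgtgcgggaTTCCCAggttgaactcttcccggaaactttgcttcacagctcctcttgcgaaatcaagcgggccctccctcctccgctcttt

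The core was read once in each of the 3 windows, on the plus strand of the gene in Vtn and on the opposite strand in Colec11 and Steap4. Of all 32851 promoters, 17.9% held it on either strand in the same window. The core of the hypoxia response element, GCGTG or ACGTG on either strand, was in 31.6% of all promoters and in none of the 3 windows. A match is a stretch of letters and not a measured binding site.

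The members differed widely in how many cells carried them. Vtn was carried by 8 cells, 4 in each pool, and Higd1b also by 8, 4 in each pool. Steap4 was carried by 23 cells (12 and 11 in pools A and B), Colec11 by 25 (12 and 13) and Ndufa4l2 by 34 (20 and 14). Cox4i2 was carried by 95 cells (49 and 46), more than any other member. For each member the numbers in the pools were close.

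Carrying cells held these genes at clear levels. The median over carrying cells was 1263 CPM for Vtn, 404 for Steap4, 343.8 for Ndufa4l2, 318.2 for Higd1b, 158.7 for Colec11 and 114.1 for Cox4i2. The highest single values were 3772 CPM for Vtn, 3698 for Steap4, 1973 for Ndufa4l2, 1588 for Colec11, 1023 for Cox4i2 and 739 for Higd1b. Levels of different genes can be compared only per length of transcript, which is done below for carrier cells.

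The 12 carrier cells held most of the counts of 4 members. They held 82.9% of all Higd1b counts, 80.2% of Vtn, 71.2% of Steap4 and 64.3% of Colec11 counts. Their share was 44.7% for Ndufa4l2 and 18.04% for Cox4i2. Cox4i2 was thus mostly outside the carrier cells: 86 of its 95 carrying cells carried no other member. For Ndufa4l2 that held for 15 of 34 cells, for Colec11 13 of 25, for Steap4 7 of 23, for Higd1b 2 of 8 and for Vtn 1 of 8.

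**Figure D1:**
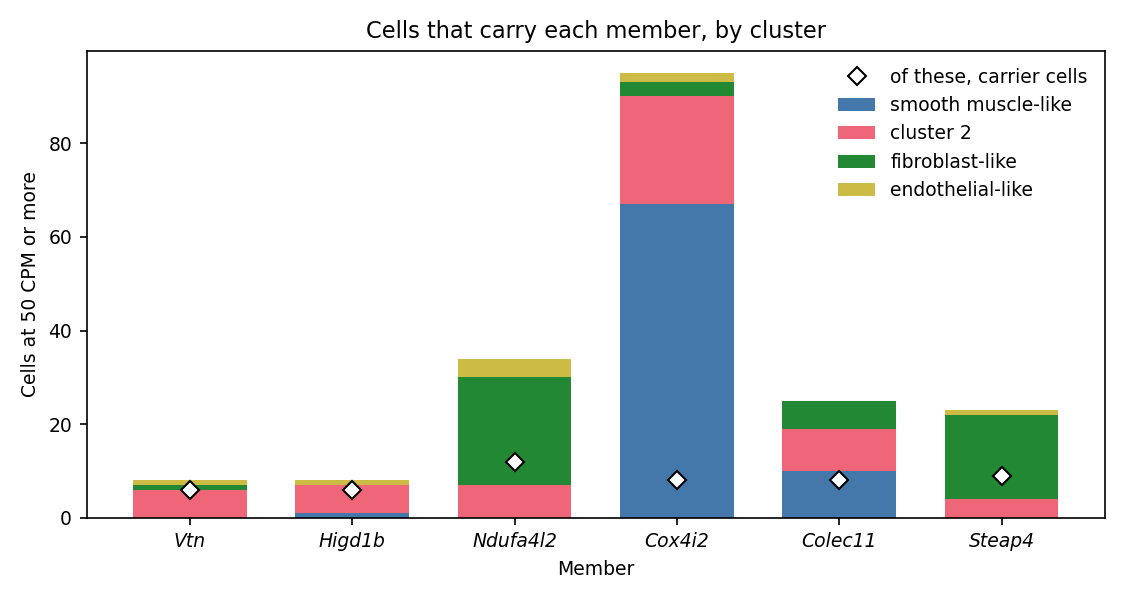
Number of cells at 50 CPM or more (vertical axis) for each member (horizontal axis), stacked by the cluster of the cell, with diamonds for the number that are carrier cells. Cox4i2 was carried by 95 cells, mainly smooth muscle-like, while Ndufa4l2 (34 cells) and Steap4 (23 cells) were carried mainly by fibroblast-like cells.

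Cells were clustered without the 6 members and without Rgs5, Myh11 and Acta2. The clusters were smooth muscle-like (clusters 0 and 1, 468 cells), fibroblast-like (64), endothelial-like (21) and the remaining cells, which were left unnamed (cluster 2) because markers of other types outnumbered those of muscle among its 10 leading genes, Actc1 and Myh6 of heart muscle included. All 8 smooth muscle markers reached 100 CPM in cluster 2. The smooth muscle-like clusters held 0 carrier cells, cluster 2 held 7, the fibroblast-like cluster 4 and the endothelial-like cluster 1.

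Ndufa4l2 and Steap4 were carried mostly by fibroblast-like cells. Of the 34 cells that carried Ndufa4l2, 23 were fibroblast-like, 7 in cluster 2, 4 endothelial-like and 0 smooth muscle-like. Steap4 was carried by 18 fibroblast-like cells, 4 of cluster 2 and 1 endothelial-like cell. With the carrier cells left out, the summed counts of fibroblast-like cells still held Ndufa4l2 at 140 and 183.2 CPM in pools A and B (161.8 ± 30.2, SD, n = 2). The same cells held Steap4 at 62.2 and 126.7 CPM (94.4 ± 45.6, SD, n = 2). Smooth muscle-like cells had 0.437 and 0.569 CPM of Ndufa4l2 and 0.159 and 0.611 CPM of Steap4, so the fibroblast-like sum was higher in each pool. How many of all genes differ as far between these classes was not counted. Single cells of the classes overlapped. The median fibroblast-like cell outside the carriers had 0 CPM of each gene, and smooth muscle-like cells reached 32.7 CPM of Ndufa4l2 and 20.6 CPM of Steap4. Endothelial-like cells other than carriers held Ndufa4l2 at 73.03 and 102.5 CPM and Steap4 at 0.325 and 0 CPM.

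Cox4i2 was spread over the muscle cells. It was carried by 67 of 468 smooth muscle-like cells, 23 in cluster 2, 3 of 64 fibroblast-like cells and 2 of 21 endothelial-like cells. Its summed level outside carrier cells for smooth muscle-like cells was 21.4 and 22.3 CPM, and it was 27.96 and 10.9 in cluster 2, 7.98 and 13.04 in fibroblast-like cells and 5.19 and 25.6 in endothelial-like cells (pools A and B). The order of these classes differed between the pools. After every cell was thinned to 50000 counts, 17.8 and 24.3% of smooth muscle-like cells had a Cox4i2 count, against 16.7 and 12.5% of fibroblast-like cells.

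Vtn and Higd1b were low in every class but the carriers. Vtn was carried by 6 cells of cluster 2, 1 fibroblast-like and 1 endothelial-like cell, and Higd1b by 6 cells of cluster 2, 1 smooth muscle-like and 1 endothelial-like cell. Outside carrier cells, Vtn reached 35.5 and 0.952 CPM in cluster 2, where 1 cell of pool A at 3772 CPM (well A14) held most of it, and at most 3.57 CPM in any named class. Higd1b stayed at or below 1.95 CPM in every class of both pools. Colec11 was carried by 10 smooth muscle-like cells, 9 of cluster 2 and 6 fibroblast-like cells. Its level outside carriers was 2.89 and 4.83 CPM in smooth muscle-like and 17.95 and 3.48 CPM in fibroblast-like cells, with the order reversed between the pools.

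**Figure D2:**
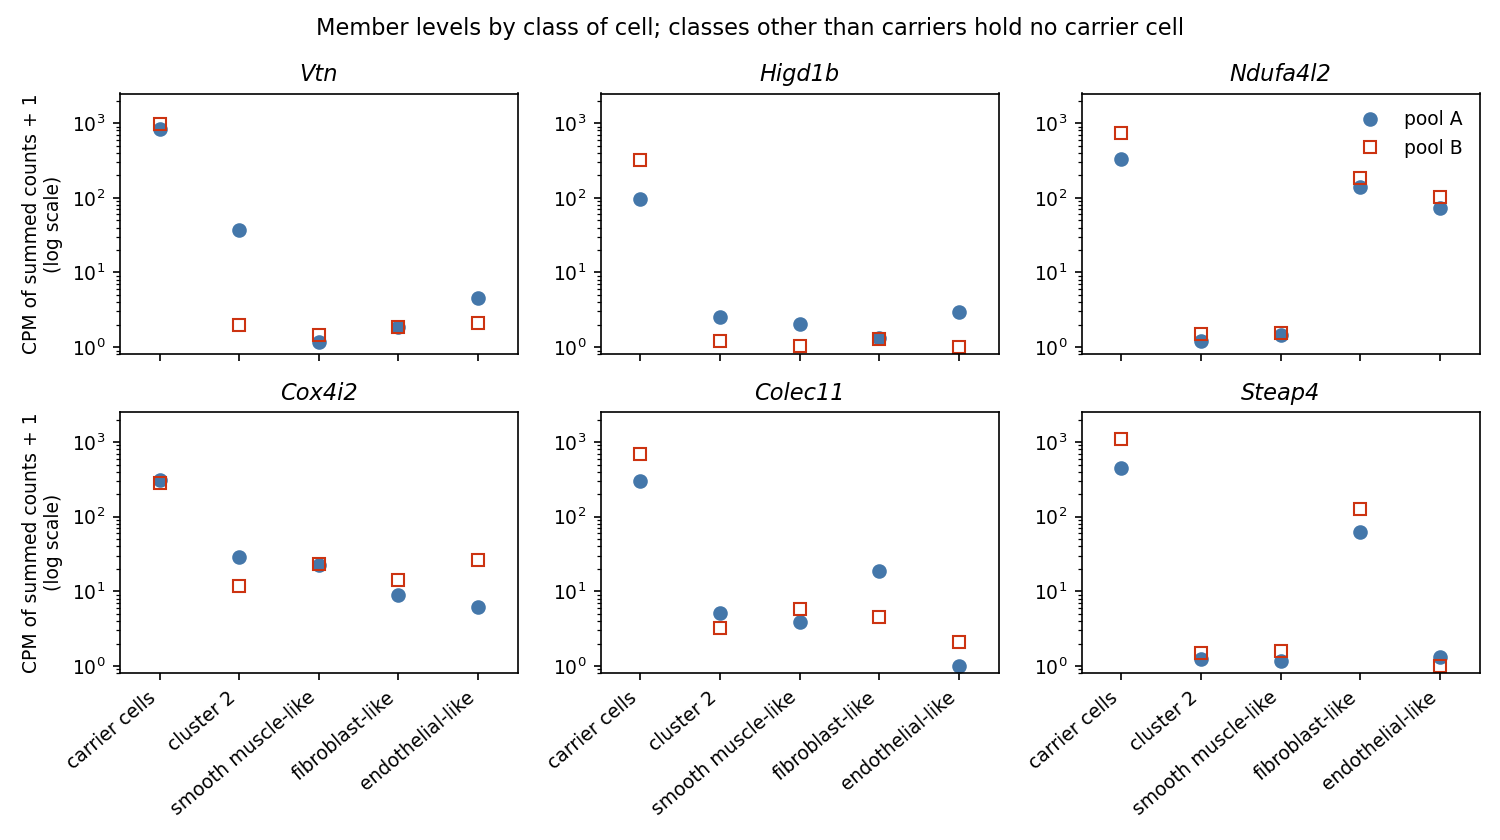
CPM of summed counts plus 1 (vertical log axis) of each member in carrier cells and in the other cells of each cluster class (horizontal axis), with 1 point per pool. Fibroblast-like cells held Ndufa4l2 at 140 and 183.2 CPM and Steap4 at 62.2 and 126.7 CPM, while Vtn and Higd1b were low in every class but the carriers.

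Cells that carried several members were rare in both pools. No member was carried by 529 of the 675 cells, and 2 members were carried by 10. Carrier cells made up 1.63% of pool A (6 cells, exact Clopper-Pearson 95% interval 0.602 to 3.52%) and 1.95% of pool B (6 cells, 0.718 to 4.19%). These intervals cover counting error over cells only, and the cells of a pool share mice and plate. The shares of the pools lay within each other's interval. Among the 12, 5 cells carried 3 members, 2 carried 4, 4 carried 5 and 1 carried all 6.

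Each carrier cell is named by its plate well. The cell with all 6 members, P07 of pool B, held Vtn at 2293 CPM, Colec11 at 1179, Ndufa4l2 at 949, Steap4 at 917, Higd1b at 739 and Cox4i2 at 241.1 CPM. Its Rgs5 was 2883 CPM, its Myh11 944 and its Acta2 4791 CPM. Rgs5 encodes a regulator of G protein signalling that is high in mural cells, Myh11 the smooth muscle myosin heavy chain and Acta2 smooth muscle alpha-actin.

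The carrier cells A13, B09, K06 and K21 shared Colec11, Cox4i2 and Ndufa4l2 with P07, with Steap4 at 70.9 CPM or less. Vtn was 1197 CPM in A13, 3716 in B09, 1330 in K21 and 0 in K06. Colec11 was 51.2, 850, 1588 and 523 CPM in A13, B09, K21 and K06. Steap4 was 0, 70.9, 3.59 and 0 CPM in the same order. These 4 cells kept much contractile RNA: Myh11 was 1465, 4441, 3313 and 2561 CPM, and Acta2 ran from 5231 to 7090 CPM. All 4, and P07, held Gpx3, a secreted glutathione peroxidase, at 3522 to 4797 CPM. Gpx3 was not limited to them. The remaining carriers had 7.47 to 2527 CPM, with 2251 in C13, 2527 in D18 and 1852 in N12.

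The carrier cells M14, C13 and K22 looked different from those. Steap4 was 2339, 3698 and 1875 CPM in M14, C13 and K22, the highest values among carrier cells. Colec11 was 0, 0 and 3.35 CPM, and Vtn was 0, 0 and 190.9 CPM. Higd1b was carried by all 3, at 478, 557 and 83.7 CPM. Rgs5 was 15714, 8603 and 5967 CPM, the 3 highest values among carriers, while Myh11 was 1076, 208.9 and 100 CPM. C13 and K22 also held Kcnj8, the Kir6.1 potassium channel subunit, at 3125 and 1108 CPM, and M14 held 0. K22 lay in the endothelial-like cluster, with Pecam1 at 1179 and Cdh5 at 271.2 CPM, both endothelial adhesion genes. Whether it held more than 1 cell was not tested, and no doublet caller was run.

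The other carrier cells, D18, L10, N07 and N12, lay in the fibroblast-like cluster and carried exactly 3 members each. All 4 carried Ndufa4l2 (450, 611, 90.3 and 66.1 CPM) and Steap4 (1109, 416, 555 and 216.5 CPM). L10, N07 and N12 added Colec11 at 140.6, 77.4 and 198.4 CPM, and D18 added Vtn at 313.6 CPM. None had a count of Higd1b or Cox4i2. Dcn, which encodes the fibroblast proteoglycan decorin, was 5041 to 10227 CPM in these 4 cells and 0 to 1531 CPM in the other 8. Rgs5 was 4.54, 0, 38.7 and 12.03 CPM. By these values the members did not pick out a single kind of cell, and only 8 of the 12 carriers were high in Rgs5.

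**Figure D3:**
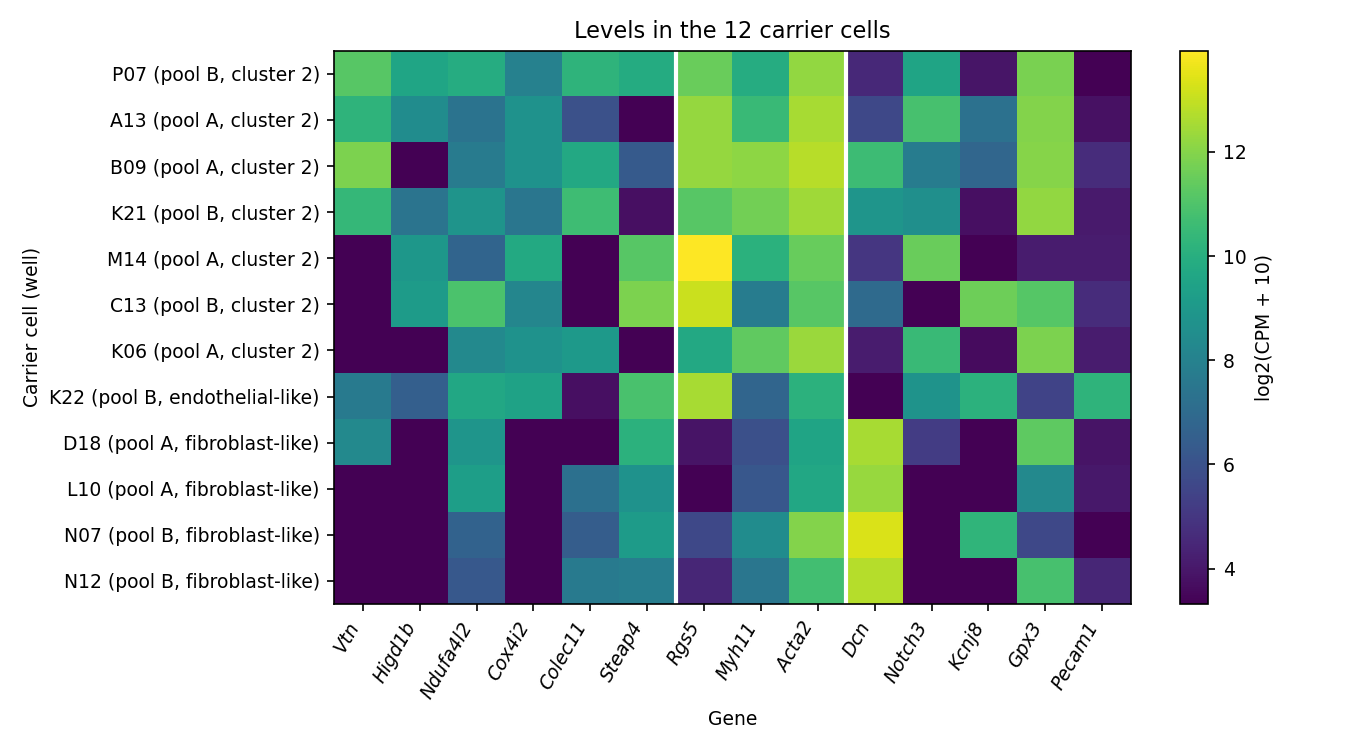
Colour gives log2(CPM + 10) of the 6 members, of Rgs5, Myh11 and Acta2, and of 5 other genes (columns, set apart by white lines) in each of the 12 carrier cells (rows, with pool and cluster). The 8 cells outside the fibroblast-like cluster held Rgs5 at 845 to 15714 CPM, and the 4 fibroblast-like carriers held Dcn at 5041 to 10227 CPM.

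Cells just under the limit were mostly fibroblast-like, and all 10 had Rgs5 below 50 CPM. Of the 10 cells that carried 2 members, 8 were in the fibroblast-like cluster. Of these 8, 6 carried Ndufa4l2 with Steap4, I05 carried Colec11 (160 CPM) with Steap4 (392 CPM) and K14 carried Colec11 (538 CPM) with Ndufa4l2 (70.1 CPM). D07, a smooth muscle-like cell, carried Colec11 (451 CPM) and Cox4i2 (120.9 CPM) with Rgs5 at 0. A14 carried Vtn (3772 CPM) and Colec11 (319.5 CPM). It held Gpx3 at 8211 CPM, but also Dcn at 6831 CPM beside Acta2 at 6776 CPM, and Rgs5 at 47.6 CPM.

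Pairs of members can be read from the cells that carried both. Ndufa4l2 and Steap4 were carried together by 15 cells, 44.1% of the Ndufa4l2 cells and 65.2% of the Steap4 cells, and 10 of the 15 were fibroblast-like. Across all 675 cells their log2(CPM + 10) had a Pearson correlation of 0.579, the highest of the 15 pairs, given without a test because cells share plates. Vtn and Colec11 were carried together by 5 cells (62.5% of Vtn cells and 20% of Colec11 cells) with a correlation of 0.494. Vtn and Higd1b shared 4 cells (50% of each) with 0.477. Cox4i2 had a correlation of 0.124 to 0.261 with the others.

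Each member was also read in cells that carried at least 3 of the other 5, so that it took no part in choosing them. Ndufa4l2 was carried by 7 of 7 such cells (exact 95% interval 59.04 to 100%), against 27 of 668 other cells (4.04%, 2.68 to 5.83%). Cox4i2 was carried by 7 of 11 (63.6%, 30.8 to 89.1%) against 13.3% of the rest, and Steap4 by 5 of 8 (62.5%, 24.5 to 91.5%) against 2.70%. The shares were 6 of 12 for Higd1b (50%, 21.1 to 78.9%) against 0.302%, 4 of 8 for Colec11 (50%, 15.7 to 84.3%) against 3.15% and 5 of 11 for Vtn (45.5%, 16.7 to 76.6%) against 0.452%. For each member the share was higher in chosen cells than in the other cells, which is a description and not a test. The intervals treat cells as independent, although the cells of a pool share mice and plate. The genes were also picked with these data known.

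Per kilobase of exon, the mean levels of the members within carrier cells lay between 245.1 and 493 CPM per kb. The summed counts gave 493 ± 270.7 CPM per kb for Ndufa4l2, 446 ± 50.4 for Vtn, 378 ± 22.7 for Cox4i2, 310 ± 172.9 for Colec11, 246.01 ± 146.3 for Steap4 and 245.1 ± 185.02 for Higd1b (mean ± SD of n = 2 pools). Among neighbours in this order Vtn and Cox4i2 differed by more than both of their SDs, with Vtn at 410.5 and 481.7 and Cox4i2 at 394.2 and 362.2 CPM per kb in pools A and B. The other neighbours differed by less than the larger of their SDs. For comparison, the same sums gave 724 ± 58.7 CPM per kb for Rgs5, 180 ± 60.3 for Myh11 and 1679 ± 151.2 for Acta2. All members but Cox4i2 had higher sums in pool B, with 833 against 978 CPM for Vtn, 96.8 against 318.4 CPM for Higd1b, 330 against 750 for Ndufa4l2, 303.7 against 700 for Colec11 and 450 against 1102 for Steap4. Each of these sums was made from only 6 cells.

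Rgs5 was high, and Myh11 and Acta2 were lower, in the summed carrier cells. The summed counts of carrier cells held Rgs5 at 3103 and 3480 CPM in pools A and B, against 521 and 271.3 CPM in all other cells. The fitted log2 difference was 3.13 ± 0.27 (SE; edgeR quasi-likelihood test, adjusted p = 4.63e-09, n = 2 pools). Myh11 was 1695 and 1047 CPM against 3869 and 3184 CPM, a log2 difference of -1.39 ± 0.22 (edgeR adjusted p = 9.91e-05). Acta2 was 3921 and 3452 CPM against 6135 and 5555 CPM, a log2 difference of -0.66 ± 0.16 (edgeR adjusted p = 0.0269). These 3 genes took no part in choosing the cells. The calls depended on the fit. DESeq2 did not call any of the 3 (adjusted p = 0.0732 for Rgs5, 0.723 for Myh11 and 0.952 for Acta2). Without the pool block edgeR did not call them either (adjusted p = 0.197 for each). In smooth muscle-like cells with a count of the gene, log counts increased with log depth. The slope was 0.728 for Rgs5 (436 cells), 0.810 for Myh11 and 0.403 for Acta2 (468 cells each). Among these cells the deeper ones thus had lower CPM of each. Smooth muscle-like cells without an Rgs5 count were not in its slope.

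Single cells show where these sums came from. In each of the 8 carrier cells outside the fibroblast-like cluster Rgs5 was at least 845 CPM (lowest 845, median 4861, highest 15714). Among the other 663 cells it ranged from 0 to 7137 CPM with a median of 21.2, and 41.3% of them had 50 CPM or more. M14 was above all other cells of pool A and C13 above all other cells of pool B, while K06 was above 83.7% of its pool. Among the 468 smooth muscle-like cells, 45.5% also had 50 CPM or more.

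Myh11 ran from 100 to 4441 CPM (median 1271) in those 8 cells, with a median of 3901 CPM in smooth muscle-like cells (lowest 90.4, highest 9760). B09 and K21 were above 59.3 and 53.3% of the other cells of their pools, and K22 and C13 were above 2.32 and 5.96%. Acta2 ran from 1118 to 7090 CPM (median 5011), against a median of 6616 CPM in smooth muscle-like cells (lowest 968, highest 22524). The 4 fibroblast-like carriers had 49.99 to 348.2 CPM of Myh11 and 723 to 4050 CPM of Acta2, inside the range of the other fibroblast-like cells (32.99 to 549 and 462 to 6508 CPM). Without these 4 cells the Acta2 difference was -0.41 and was no longer called (edgeR adjusted p = 0.168), while Rgs5 (3.54) and Myh11 (-1.03) were still called.

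**Figure D4:**
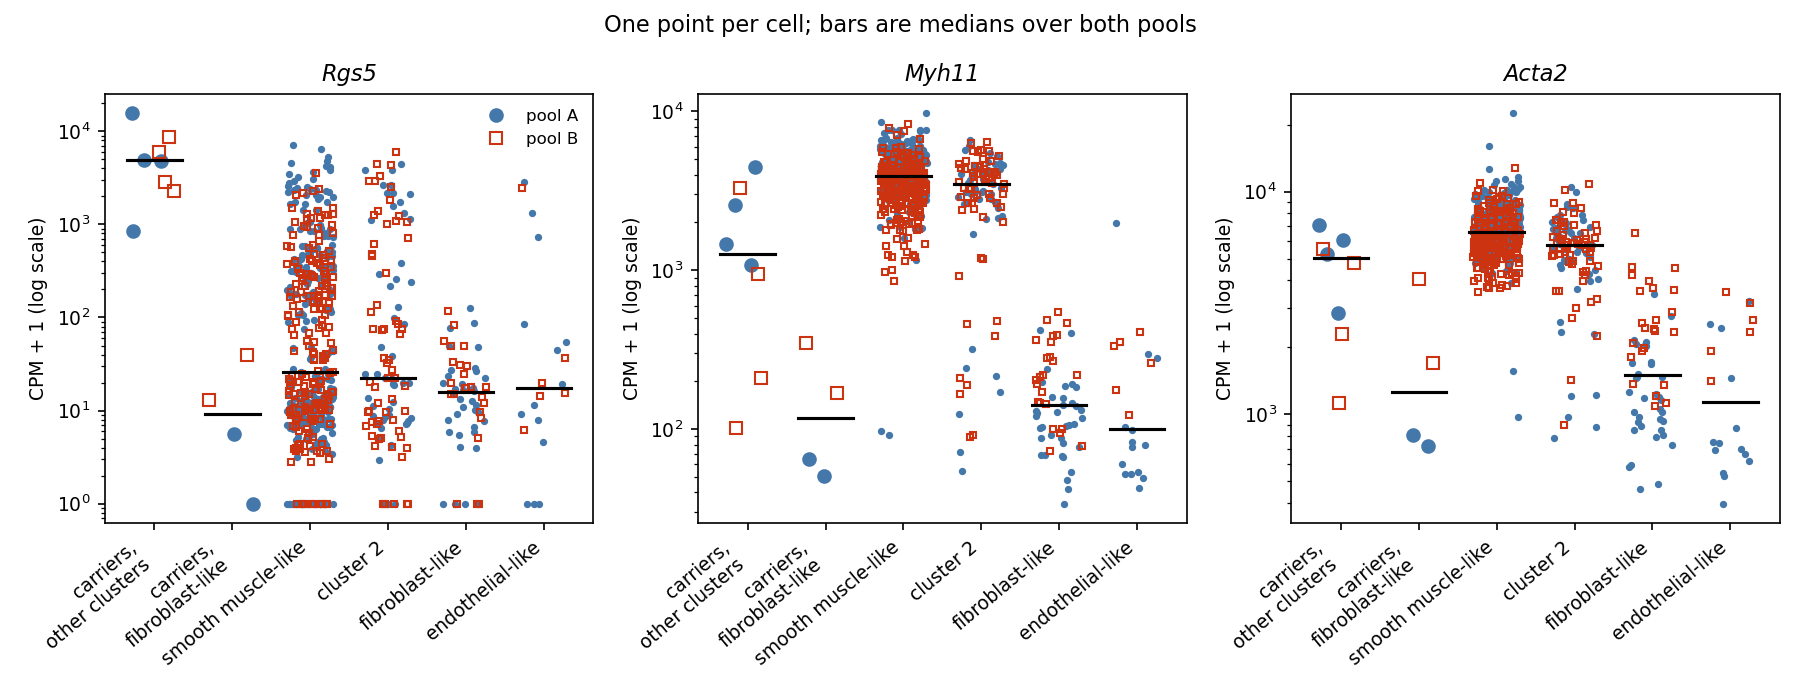
CPM plus 1 (vertical log axis) of Rgs5, Myh11 and Acta2 in single cells (1 point each, coloured by pool), with carrier cells split by cluster and the other cells by class, and bars for medians. The 8 carrier cells outside the fibroblast-like cluster lie between 845 and 15714 CPM of Rgs5, while the 4 fibroblast-like carriers lie at or below 38.7 CPM.

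Genes beyond these were compared between carrier cells and all other cells in the same fit. The test covered 16766 genes. At an adjusted p of 0.05 (edgeR, n = 2 pools) 1.47% of them were called, 0.787% as higher and 0.68% as lower in carrier cells. An unadjusted p under 0.05 was reached by 976 genes. With RLE size factors in place of TMM the split was 1.02% higher and 0.555% lower, and the log2 differences moved up by a median of 0.24. That shift was 0.12 without the block and 0.13 without the endothelial-like carrier. The median log2 difference over all tested genes was -1.17. It was -0.65 with 2 members required, -2.36 with 4 required and -2.34 with no filter beyond a count above 0. This median thus moved with the cells and the filter. The genes behind it were not matched in level to the lists below. A list median beside it does not show that a list fell less than genes of like level. The fit has 1 residual degree of freedom per gene and treats the pool as a block. Without the block 0 genes were called by edgeR (3605 at an unadjusted p under 0.05), and DESeq2 called 0.835% higher and 1.2% lower.

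The 10 genes with the largest rise were at 50 CPM in few carriers and in almost no other cell, and in none of the 4 fibroblast-like carriers. Ephx3, an epoxide hydrolase, was 293.6 and 280.9 CPM in carriers of pools A and B against 1.20 and 0.0432 CPM (log2 difference 10.04 ± 1.21, edgeR adjusted p = 2.16e-06), and was carried by 5 carriers and 1 other cell. Inpp4b, a phosphoinositide phosphatase, was 220 and 155.5 CPM against 0.209 and 0.0324 CPM (5 carriers, 0 other cells). The highest of its 5 cells was M14 at 1046 CPM, followed by A13 at 744. H2-M9, a class I-like histocompatibility gene, was 81.6 and 740 CPM in the pools, but P07 alone held 81.96% of its carrier counts. The transcription factor genes Hoxc4 and Tbx5 were each carried by 3 carriers, with 1 and 2 other cells. The others were Sytl2 (4 carriers), Rerg and Ggt5 (3 each), and Olfr558 and Ifitm1 (2 each, with 77.5 and 81.1% of the carrier counts in 1 cell). Without the fibroblast-like carriers Ifitm1 was not called (edgeR adjusted p = 0.0780), at a log2 difference of 8.51 against 8.13 with them.

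The 10 largest falls were genes that many other cells held and carriers lacked. Susd5 was 6.33 and 24.03 CPM in carriers against 789 and 841 CPM, and 0 of 12 carriers but 564 of 663 other cells had 50 CPM (log2 difference -5.99 ± 0.55, edgeR adjusted p = 1.39e-08). Npr1, the receptor of atrial natriuretic peptide, was 3.796 and 4.51 CPM against 312.6 and 228.5 CPM. Aqp1, a water channel, was 3.16 and 9.01 CPM against 405 and 307.7 CPM. Efhd1, Casq1, Nrtn, Prdm16, Pamr1, Abracl and 1190005I06Rik fell likewise, with 50 CPM in 0 or 1 of 12 carriers while at most 539 of the 663 other cells had that level. Nrtn, Prdm16, Pamr1 and Abracl were not called once the fibroblast-like carriers were left out (edgeR adjusted p = 0.0800 to 0.433). Their log2 differences were then -6.13, -5.95, -6.98 and -6.01, against -6.54, -6.36, -6.16 and -6.00 with all carriers. The other cells are mainly smooth muscle-like, and the 12 carriers include 5 cells of other named clusters.

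Most other pericyte genes were not called. Of 28 listed genes 24 could be tested. Of these, 2 were higher, 2 lower and 20 not called, where 1.47% of all tested genes were called. The log2 differences of those not called ran from -6.58 (Slc38a11) to 3.70 (P2ry14). On simulated sums the fit called 2 of 50 genes raised by 3 on the log2 scale. Those genes were drawn at random from all tested genes, so this share does not hold for the listed genes as such. A listed gene that was not called may still differ, here and in the lists below. The list had a median log2 difference of 0.92 against -1.17 for all genes. Notch3, the mural Notch receptor, rose from 42.5 and 29.6 CPM in other cells to 932 and 384 CPM (log2 difference 4.08 ± 0.50, edgeR adjusted p = 2.83e-06). It was 2892 CPM in M14, 1816 in A13, 1442 in K06, 726 in P07, 429 in K22, 381 in K21, 212.6 in B09 and 0 in C13, and at most 27.3 CPM in the fibroblast-like carriers. Gja4, the connexin-37 gene, rose from 30.8 and 24.5 to 495 and 235.1 CPM (edgeR adjusted p = 0.000609). It reached 50 CPM in 5 of 12 carriers and 66 of 663 other cells. In pool A it was 1725 CPM in A13, 1382 in M14, 622 in B09 and 0 in K06. In pool B the highest value was 924 CPM in K22, the endothelial-like carrier. C13 had 239.8 CPM, K21 21.6 and P07 0. Cspg4, the NG2 proteoglycan that is also high in smooth muscle, fell from 454 and 369 to 8.86 and 42.1 CPM, and Mcam from 793 and 775 to 196.1 and 260.6 CPM (edgeR adjusted p = 0.000187 and 0.00717). Without the fibroblast-like carriers Mcam was not called (edgeR adjusted p = 0.138), at a log2 difference of -1.42 against -1.79 with them, and DESeq2 did not call it (adjusted p = 0.556). Pdgfrb, the PDGF receptor of mural cells and fibroblasts, was 696 and 468 against 230 and 209.3 CPM (edgeR adjusted p = 0.134).

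The marker list for pericytes was read per cell as well. Summed over the list, single carriers ranged from 163.6 to 6800 CPM in pool A and from 1076 to 6785 in pool B, and other cells from 4.04 to 3939 and from 44.1 to 6350 CPM, so the groups overlapped. Fibroblast markers, 8 in the list, summed to 9178 and 4527 CPM in carriers against 2315 and 1883 CPM in other cells. Endothelial markers summed to 38.6 and 1211 CPM in carriers, the latter mainly from K22, against 447 and 188.99 CPM. The part of these other cell types in the gene differences was not tested beyond leaving out the cells named.

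Contractile genes were lower or not called. Of 22, 0 were higher, 6 lower and 16 not called, where 0.68% of all tested genes were lower. The median log2 difference of the list was -0.97, beside -1.17 for all genes, which were not matched for level. The 6 were Itga8 (-3.47 ± 0.37), Kcnmb1 (-3.20 ± 0.76), Myocd (-2.91 ± 0.63), Smtn (-2.59 ± 0.35), Cnn1 (-1.45 ± 0.30) and Flna (-1.33 ± 0.24). DESeq2 called none of these 6 (adjusted p = 0.0926 to 0.752). Myocd encodes the coactivator that drives smooth muscle genes, Itga8 an integrin of contractile cells and Kcnmb1 the beta subunit of the calcium-activated potassium channel. Tagln was 1892 and 1135 against 2517 and 2489 CPM and was not called (edgeR adjusted p = 0.147). Des, the desmin gene, was 360 and 771 against 118.9 and 256.01 CPM, not called in all carriers (edgeR adjusted p = 0.0567) and called higher without the fibroblast-like ones (edgeR adjusted p = 0.0125).

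Of 12 tested respiratory chain relatives of the mitochondrial members 0 were called in either direction, where 1.47% of all tested genes were, so the count is near the share of all genes. Their median log2 difference was -0.47 against -1.17 for all genes. Cox4i1, the common form of the subunit, was 461 and 728 CPM in carriers against 829 and 907 CPM (log2 difference -0.58 ± 0.33), and every carrier cell had 50 CPM or more of it. Ndufa4 was 127.8 and 137.4 CPM against 223.6 and 258.4 CPM (-0.85 ± 0.59), and Higd1a was 35.4 and 58.6 against 144.2 and 177.5 CPM (-1.81 ± 0.86). Of 25 oxygen sensing and hypoxia genes 0 were called, with a median of -1.12 beside -1.17 for all genes. Epas1, which encodes HIF-2 alpha, was 468 and 322.9 against 185.4 and 92.9 CPM (log2 difference 1.57 ± 0.51, edgeR adjusted p = 0.191). It was 1995 CPM in M14, 1276 in C13, 961 in A13 and 753 in K22, but 2.62 CPM in P07, which carried all 6 members.

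Partners of Vtn and Steap4 were examined in the same way, with 1.47% of all tested genes called. Of 9 vitronectin receptors and partners 0 were higher and 1 lower: Fn1, the fibronectin gene, was 531 and 167.5 against 1095 and 794 CPM (log2 difference -1.64, edgeR adjusted p = 0.0131). Without the fibroblast-like carriers the difference was -1.30 and not called (edgeR adjusted p = 0.109), and DESeq2 did not call it (adjusted p = 0.633). The integrin subunit genes Itgav and Itgb3, whose products together form a vitronectin receptor, were 5.06 and 40.6 CPM and 7.59 and 3.76 CPM in carriers, against 121.9 and 55.7 CPM and 125.4 and 81.4 CPM, neither of them called. Of 9 tested metalloreductase relatives and iron or copper genes 0 were called. Ftl1, ferritin light chain, was 627 and 707 against 275.5 and 276.6 CPM (edgeR adjusted p = 0.139).

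Among lectin pathway and complement genes, 3 of 9 tested were higher and 0 lower, where 0.787% of all tested genes were higher and 0.68% lower. C1s1, the serine protease of the first complement component, rose from 45.2 and 37.1 to 770 and 858 CPM (log2 difference 4.31 ± 0.46, edgeR), and 11 of 12 carriers had 50 CPM. Serping1, the inhibitor of that protease, rose from 449 and 620 to 2335 and 1962 CPM (2.02 ± 0.28). C4b rose from 7.89 and 15.02 to 212.6 and 226.1 CPM (4.34 ± 0.91), with 50 CPM in 4 carriers. C1s1 and Serping1 were also called without the fibroblast-like carriers. C4b was then at 3.39 and not called (edgeR adjusted p = 0.777), with 50 CPM in 3 of the 8 carriers left. DESeq2 called C1s1 and C4b but not Serping1 (adjusted p = 0.274). Without the fibroblast-like carriers the list's median went from 2.02 to -1.51, while that of all tested genes went from -1.17 to -1.96. Colec12, a scavenger receptor collectin, was then called lower (edgeR adjusted p = 0.0098). C3, the central complement component, was at 50 CPM in 2 carriers, D18 and N12, both fibroblast-like.

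Genes most like the members were ranked by the Pearson correlation, over 675 cells, of log2(CPM + 10) with the mean of the 6 members. These values come from cells that share plates and depth and have no test. Of 13666 genes ranked, Ephx3 (0.663), Inpp4b (0.599), Bmp5 (0.540) and Gpx3 (0.531) came first. Bmp5 encodes a bone morphogenetic protein. Next were Ccl19-ps1 (0.528), Trarg1 (0.504), C1qtnf5 (0.4999), Mfrp (0.499), Gm20444 (0.475) and Rerg (0.457). C1qtnf5, Mfrp and Gm20444 overlap in the genome, and reads between them could not be told apart here. Gpx3 was carried by 9 of 12 carriers and 39 of 663 other cells, Ephx3 by 5 and 1. Rgs5 (0.178) ranked below Notch3 (0.251) and Dcn (0.292, rank 81). Myh11 and Acta2 had correlations of -0.294 and -0.251.

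At a finer clustering, 7 of the 12 carriers fell into 1 cluster of 13 cells (9 of pool A, 4 of pool B) that was called pericyte-like from 7 of 9 markers at 100 CPM. Its leading genes began with Vtn, H2-M9, Colec11, Col6a5 and Gpx3, and none of the 9 pericyte markers was among its top 10. All 8 smooth muscle markers were at 100 CPM in it as well. The smooth muscle-like clusters 0 and 1 of the main clustering had 5 and 4 of the 9 pericyte markers at that level. The 7 carriers were P07, A13, B09, K21, M14, C13 and K06. Of the other 6 cells, 4 carried no member and had Rgs5 at 0 to 11.1 CPM with Myh11 at 2654 to 4653 CPM. The cluster was thus not made up of carrier cells only. At the coarser resolution of 0.25 the same 7 carriers and K22 lay together in a cluster named endothelial-like. The class name of these cells therefore changed with the resolution. Pecam1 was at most 15.7 CPM in the 7 carriers.

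Low counts of Vtn and Higd1b followed the layout of the plates, with less contrast for the other members. A cell that had a count of Vtn but under 50 CPM shared a plate row or column with a cell that carried Vtn in 27 of 27 cases in pool A and in 29 of 30 in pool B. Of cells with no Vtn count, 26.8 and 21.5% shared one. For Higd1b the low cells shared a row or column in 6 of 6 and 8 of 8 cases, against 35.3 and 31.1% of cells at 0. For Ndufa4l2 the shares were 91.4 and 97.5% of low cells, against 85.3 and 75.98% of cells at 0. They were 90.9 and 100% against 75.7 and 62.2% for Steap4, and 100 and 96.8% against 71.8 and 66.3% for Colec11. The median low count was 1 read for every member in both pools, and the median ratio to the highest count in that row or column was 0.180% for Vtn, 0.739% for Higd1b, 0.654% for Ndufa4l2, 0.452% for Colec11, 0.357% for Steap4 and 1.09% for Cox4i2. For Cox4i2, carrying cells lay in nearly every row and column, so that 100 and 98.98% of cells at 0 shared one as well. How such low counts came about was not tested.

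**Figure D5:**
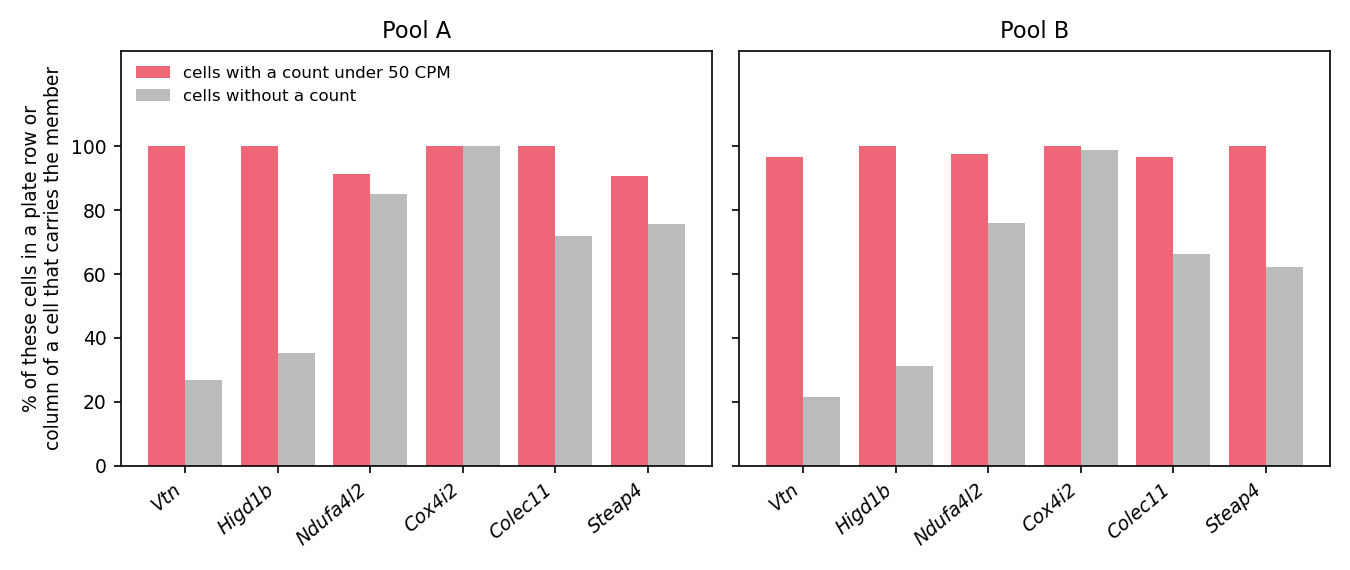
Percent of cells (vertical axis) that share a plate row or column with a cell carrying the member, for cells with a low count of it (under 50 CPM) and cells without a count, by member (horizontal axis) and pool (panels). For Vtn the low-count cells reach 100 and 96.7%, against 26.8 and 21.5% of cells without a count.

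The values that defined carrier cells were mostly far above the median ratios of the low counts. Of 49 values of a carried member in a carrier cell, 16 had a higher count in another cell of the same row or column, and 2 were under 10% of it. Both were in N07 of pool B, which shares column 07 with P07: its 6 reads of Colec11 were 1.33% of the count in P07 and its 7 reads of Ndufa4l2 were 1.93%. N07 would not be a carrier without either of them, and the other 11 carriers had no value under 10%. The ratios of low counts spread more widely for some members. Their 95th percentile was 46.7% for Ndufa4l2, 18.2% for Cox4i2 and at most 5.56% for the other members. Ndufa4l2 in A13, at 25.5% of its neighbour, lay inside that spread. Cox4i2 in K21 (23.04%) and C13 (24.8%) lay little above it. K21 and K22, adjacent wells of pool B, both carried Vtn (370 and 57 reads), Higd1b (45 and 25), Ndufa4l2 (442 and 804 CPM) and Cox4i2 (168.9 and 683 CPM). They differed in Colec11 (442 and 1 reads) and in Steap4 (1 and 560 reads).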

How the data were processed

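Per the labels' protocols, cells were sorted into plates and made into Smart-seq2 libraries. The authors deposited raw counts per gene and cell; the submitters' processing notes name GRCm38 (mm10), featureCounts, Subread, Bowtie, Bowtie2 and bcl2fastq without versions. The sources used here do not say whether counting used strand. Symbols came from the reference table (512 identifiers without one held 0.217% of counts), and 0 columns lay outside the labelled cells. The members and lists were chosen with earlier results of these data known.

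The level of 50 CPM is at least 3 counts in the shallowest cell. Counts were summed per pool for carrier and other cells (4 sums) and fitted in edgeR 4.0.16 (R 4.3.3) with filterByExpr, TMM, the pool as a block, the quasi-likelihood F test and Benjamini-Hochberg adjustment over all genes; DESeq2 1.42.0 was an alternative. Pool A held 367 cells and pool B 308. Of 16766 genes, 132 were called higher and 114 lower; DESeq2 called 341, of which 101 were shared. The pool marks the same mice and plate in both classes; the pool differences of the classes correlated with r = 0.103 over 16766 genes. On simulated sums for the same comparison, the fit called 24 of 50 genes raised by 5 on the log2 scale, 2 of 50 raised by 3, 4 of 44 lowered by 5, 0 of 44 lowered by 3 and 0 of 15733 unchanged genes. Clusters used scanpy 1.11.5 and leidenalg 0.10.2 (2000 genes, 20 components, 15 neighbours, resolution 0.5, with 0.25 and 1 as alternatives). Clusters were named from markers at 100 CPM, with at least 3 needed. Named genes were the 10 largest called rises and falls with 20 CPM in the higher class of both pools and the same sign in both, called genes of the lists, and the 10 genes of highest correlation among those at 50 CPM in at least 5 cells. Genes named beside these were chosen after their values were seen. The pools are the replicates, and their number limits the precision of every comparison.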

Additional observations from a re-analysis of the deposited data

How the results depend on the processing

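The number of carrier cells was 12 and became 22 with 2 members required, 7 with 4 required, 17 at 20 CPM, 10 at 100 CPM and 11 after thinning every cell to 50000 counts. Genes called higher, 0.787% of those tested, became 1.48% with 2 members required, 0.398% with 4 required, 1.42% against smooth muscle-like cells only and 0 without the replicate block. Genes called lower, 0.68%, became 0 without the replicate block (an unadjusted p under 0.05 for 3605 genes, edgeR) and 1.2% with DESeq2, with 1.04% against smooth muscle-like cells only and 1.06% after thinning; the cause was not tested. Leaving out carriers of the fibroblast-like cluster (chosen after seeing the data) gave 0.56% higher and 0.657% lower, and leaving out the endothelial-like carrier 0.88% and 0.755%. Without the block Rgs5 (3.06), Myh11 (-1.35) and Acta2 (-0.66) were not called (adjusted p = 0.197 for each, edgeR), nor with DESeq2 (3.38, -1.15 and -0.42). Acta2 was also not called with 4 members required (-0.37), without fibroblast-like carriers (-0.41) or with RLE size factors (-0.42). Each kept its sign in both pools: with 1 pool left out, a value with no test, the log2 ratio was 2.57 to 3.68 for Rgs5, -1.60 to -1.19 for Myh11 and -0.69 to -0.65 for Acta2. No count of called genes can be had from 1 pool. At resolution 0.25 the log2 ratio of fibroblast-like over smooth muscle-like cells was 0.79 for Vtn, 5.92 for Ndufa4l2 and 5.22 for Steap4, and turned to 0.32 for Cox4i2; with cells weighted equally it was 6.57 for Ndufa4l2. Of the 10 genes most like the members, 4 to 6 were among the top 10 with 1 pool left out. Sums of 6 carrier cells per pool limit all calls.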

Other observations

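Kcnj8 and Abcc9, which encode the subunits of the vascular ATP-sensitive potassium channel and are used as pericyte genes, were read in single carriers. N07, a fibroblast-like carrier, held Kcnj8 at 1225 and Abcc9 at 1058 CPM with Rgs5 at 38.7 CPM, and C13 held 3125 and 1044 CPM with Rgs5 at 8603 CPM. P07, with all 6 members, held Kcnj8 at 5.24 and Abcc9 at 425 CPM. Cygb, the cytoglobin gene, was 3699 CPM in L10 and 1096 CPM in N07, 509 to 613 CPM in M14, C13 and K22, and 0 to 260 CPM in P07, A13, B09, K21 and K06. No comparison of such small sets was made.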
